A study of Mus musculus with 14 samples.

Results

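Nqo1, Hmox1, Gclm, Gclc, Txnrd1, Srxn1, Slc7a11, Gsr, Gpx2 and Gpx3 are targets of the transcription factor Nrf2 or enzymes of glutathione redox chemistry, and their RNA levels are described here in mouse ear skin during irritant inflammation. They were taken by symbol from the deposited expression table, 10 of 24035 genes, and were selected on earlier results of these same data, so their differences are given as a description and not as a test. The samples were 14 whole ears taken 6 h after painting of both sides with 20 µl, either of 1% croton oil or of the vehicle alone, acetone with olive oil (4:1). Croton oil is a plant oil whose phorbol esters irritate skin. The 4 groups were LC-DTA ears after croton oil (n = 4), LC-DTA ears under vehicle (n = 3), LC-DTR ears after croton oil (n = 4) and LC-DTR ears under vehicle (n = 3). LC-DTA animals lack Langerhans cells (LCs), the dendritic cells of the epidermis, for the long term, whereas LC-DTR animals were taken 3 days after DT (diphtheria toxin) had removed theirs, a short-term loss.

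By the labels, every group had therefore lost its Langerhans cells, and ears with intact Langerhans cells were not analysed here, so a difference between LC-DTA and LC-DTR joins the duration of the loss with the genotype and with toxin treatment, which cannot be told apart. The sample numbers in the labels, whose meaning is not stated, ran from 10575 to 10797 in LC-DTA and from 10825 to 11098 in LC-DTR samples. Any effect that follows this numbering cannot be told apart from genotype either. The labels do not name the promoter that drives either transgene and do not state that the samples came from separate animals, so the p-values measure the spread between these samples only. Cd207, which encodes langerin, a marker of Langerhans cells, stood at 0.0567 to 1.88 TPM over the 14 samples. Between 13733 and 14332 genes per sample reached 1 TPM (a transcript's share of all transcripts after correction for its length, per 1000000), and samples of the same group correlated at r = 0.994 to 0.998 over genes. LC-DTR croton oil replicates 2 and 3 stood apart from replicates 1 and 4, with -5.26 and -8.06 against -28.5 and -28.6 on the first principal component (50.5% of the variance). Calls that change without that pair of samples, and those counts of list genes that move by more than 1.5 times, are given both ways.

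Nrf2, encoded by Nfe2l2, is held by Keap1 and the ubiquitin ligase scaffold Cul3 and degraded until electrophiles or oxidants modify Keap1. Freed Nrf2 pairs with small Maf proteins at antioxidant response elements, where the heme-sensing repressor Bach1 competes for the same sites. Its targets supply glutathione, recycle glutathione and thioredoxin with NADPH and detoxify quinones and heme. In skin this program is known for protecting keratinocytes against sunlight, wounding and irritant chemicals.

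Promoter windows show which of the genes carry the letters of an antioxidant response element close to a transcription start. RefSeq windows (build GRCm38.p6, from 250 bases before to 50 bases after a start) were found for 7 of the 10 genes and numbered 9, with 3 for Txnrd1. Hmox1 (chr8:75093621-75100589), Gclc (chr9:77754535-77794485) and Gsr (chr8:33652523-33698163) were not analysed here for promoters; gene positions are from GENCODE M21 on GRCm38. Slc7a11 (chr3:49892526-50443614), Gpx2 (chr12:76792333-76795554) and Nqo1 (chr8:107388225-107403206) lie on the minus strand. The core TGACNNNGC, searched on both strands, occurred in 3 of the 7 genes, which were Gclm, Txnrd1 and Srxn1, against 3781 of 27025 mouse genes with a window (14%). By window it was in 3 of the 9, against 12.4% of 32851 mouse windows of this length. All of these matches lay on the strand opposite to the gene, so they read GCNNNGTCA in windows written along the gene. The core was on the strand of the gene in 0 of the 9 windows, against 6.38% of all windows. The variant TGAGNNNGC, added after the windows had been seen, occurred in 2 of the 9 windows, those of Srxn1 and Slc7a11, against 17.6% of all windows, and either motif in 4 of the 9, against 27.8% of all windows. The Srxn1, Gclm and Txnrd1 windows are printed because they hold the core, and the Gpx3 window because that gene held neither motif and had the largest difference between the croton oil responses. Capitals mark the matches, and each window runs 5′ to 3′ along the gene. The Srxn1 window (chr2:152105274-152105573, plus strand) holds the variant at 158 bases before the start on the opposite strand and at 45 bases before the start on the same strand, and the core at 28 bases after the start. The copy at 45 bases, TGAGTCAGC, also contains the letters TGAGTCA of an AP-1 site.
Srxn1: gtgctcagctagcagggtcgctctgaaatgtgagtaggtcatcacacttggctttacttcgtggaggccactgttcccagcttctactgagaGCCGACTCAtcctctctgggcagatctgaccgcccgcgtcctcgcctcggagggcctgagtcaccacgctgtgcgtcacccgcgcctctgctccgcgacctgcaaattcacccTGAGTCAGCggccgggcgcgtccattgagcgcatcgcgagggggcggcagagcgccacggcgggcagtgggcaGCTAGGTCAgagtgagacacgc
The Gclm window (chr3:122245307-122245606, plus strand) holds the core at 134 bases before the start.
Gclm: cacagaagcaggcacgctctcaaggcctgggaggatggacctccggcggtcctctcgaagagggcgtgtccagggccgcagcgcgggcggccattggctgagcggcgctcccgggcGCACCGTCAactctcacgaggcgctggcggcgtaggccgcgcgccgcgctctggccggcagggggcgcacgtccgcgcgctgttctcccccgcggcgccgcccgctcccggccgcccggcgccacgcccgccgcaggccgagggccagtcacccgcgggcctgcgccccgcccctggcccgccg
The second of the Txnrd1 windows (chr10:82858956-82859255, plus strand) holds the core at 92 bases before the start.
Txnrd1: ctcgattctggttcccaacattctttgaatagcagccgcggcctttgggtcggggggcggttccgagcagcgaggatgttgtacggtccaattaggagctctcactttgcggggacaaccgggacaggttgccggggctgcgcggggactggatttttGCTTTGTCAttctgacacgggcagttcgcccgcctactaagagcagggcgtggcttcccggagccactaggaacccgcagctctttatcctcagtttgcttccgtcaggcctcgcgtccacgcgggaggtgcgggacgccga
The Gpx3 window is chr11:54902604-54902903 on the plus strand.
Gpx3: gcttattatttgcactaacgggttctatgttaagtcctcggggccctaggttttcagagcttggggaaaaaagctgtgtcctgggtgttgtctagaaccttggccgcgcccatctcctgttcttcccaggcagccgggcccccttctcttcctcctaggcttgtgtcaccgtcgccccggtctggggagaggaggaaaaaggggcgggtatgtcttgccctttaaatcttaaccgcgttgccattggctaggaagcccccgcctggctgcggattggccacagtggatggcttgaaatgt
Slc7a11 held the variant at 97 bases before its start, and Gpx2 and Nqo1 held neither motif. A match is a string of letters and not a shown binding site, and a window without a match says nothing of sites elsewhere.

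Most of the 10 genes were higher after croton oil in both genotypes. Slc7a11, Srxn1, Hmox1, Gsr, Txnrd1 and Gpx2 were called higher in LC-DTA and in LC-DTR ears, Nqo1 and Gpx3 were called higher in LC-DTR ears, and Gpx3 and Gclc were called lower in LC-DTA ears. Gclm was called in neither. A gene was called when its difference in log2(TPM + 1) had a Benjamini-Hochberg adjusted p under 0.05 in a limma fit to all 14 samples, adjusted over 14693 tested genes, all 10 among them. In LC-DTA ears 6 of the 10 were called higher and 2 lower, where 24.2% of all tested genes were called higher and 34.5% lower. In LC-DTR ears 8 of the 10 were called higher and 0 lower, against 22.1% and 29.5% of all tested genes, with the same 8 higher when croton oil replicates 2 and 3 were left out. Because the genes were chosen with these differences known, nothing is read from the counts. The median log2 difference of the 10 genes was 0.742 in LC-DTA and 0.612 in LC-DTR ears, beside -0.0899 and -0.0596 over all tested genes.

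**Figure D1:**
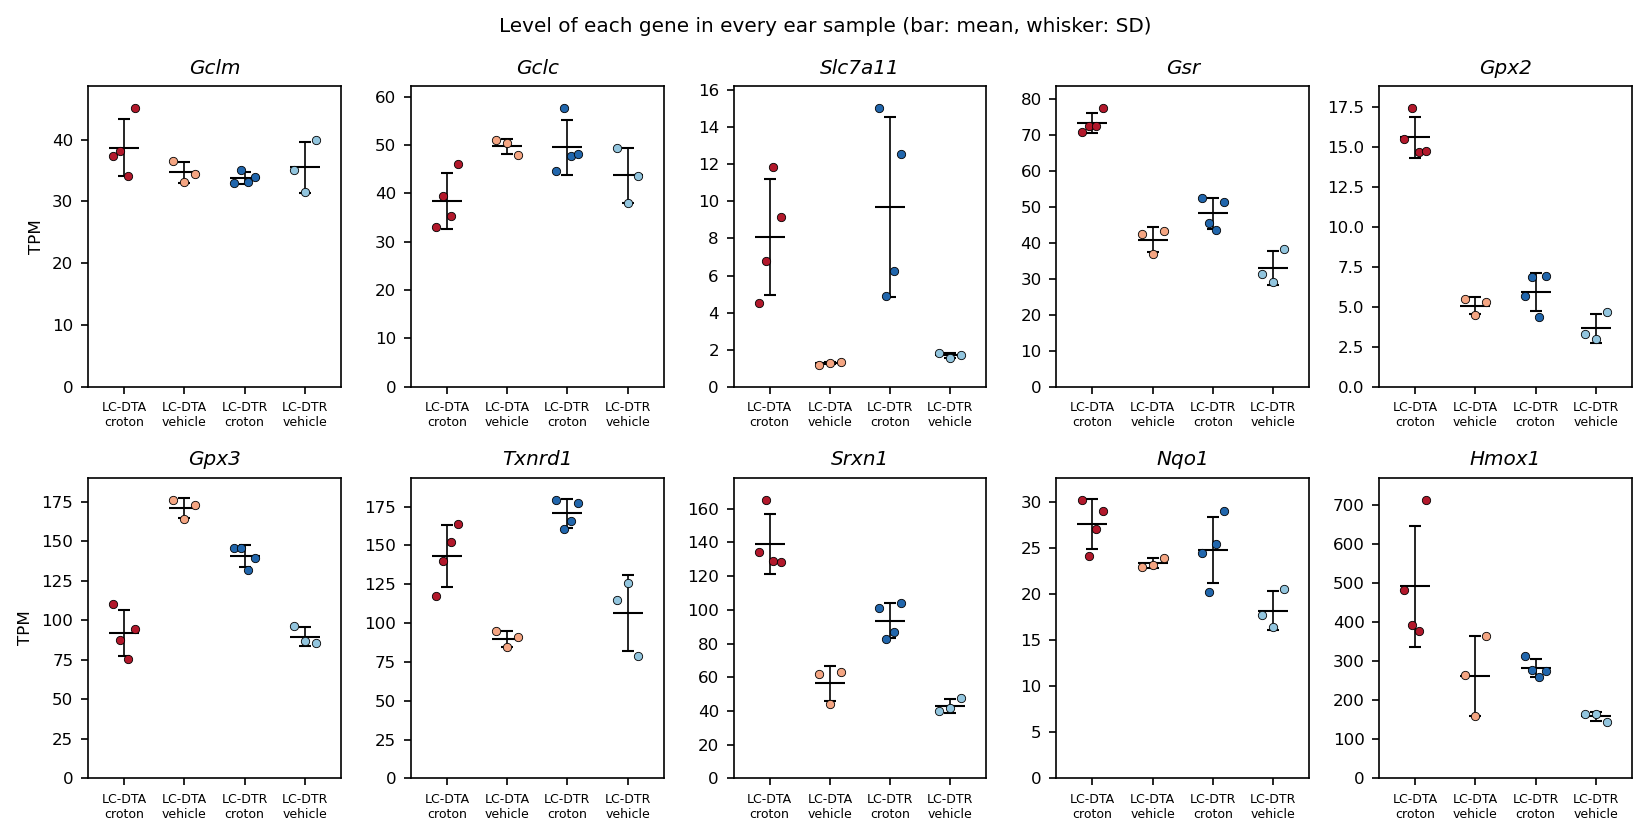
Level of each gene in TPM (y axis, linear, from 0) in each of the 14 ear samples, by genotype and treatment. Points are samples, horizontal bars group means and whiskers SD (n = 4 after croton oil, n = 3 under vehicle); Gpx3 is highest in LC-DTA vehicle ears, at 164 to 176 TPM.

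Of the genes of glutathione synthesis, the cystine importer differed most. Slc7a11 encodes the cystine-glutamate exchanger that brings in the cysteine for glutathione. It measured 4.55, 6.77, 11.9 and 9.17 TPM in LC-DTA croton oil ears, against 1.20, 1.29 and 1.32 TPM in LC-DTA vehicle ears. In LC-DTR ears it measured 15.0, 4.91, 6.27 and 12.5 TPM after croton oil, against 1.85, 1.57 and 1.69 TPM under vehicle. Within each genotype the treated and vehicle ears did not overlap, and the treated ears varied most, with coefficients of variation of 38.9% in LC-DTA and 50.3% in LC-DTR. The mean was 6.38 times the vehicle mean in LC-DTA ears and 5.69 times in LC-DTR ears, and the log2 differences were 1.93 ± 0.316 and 1.86 ± 0.316 (± SE here and below). These were the largest rises among the 10 genes. The pair of low LC-DTR samples, at 4.91 and 6.27 TPM, were replicates 2 and 3, and without them the LC-DTR difference was 2.45. The same pair was low in neutrophil markers, of which 7 summed to 775, 343, 265 and 732 TPM in LC-DTR croton oil replicates 1 to 4, and their part in the differences of Slc7a11 was not tested. These sums include S100a8 and S100a9, which stressed keratinocytes also make.

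Gclc and Gclm encode the catalytic and the modifier subunit of glutamate-cysteine ligase, the enzyme that makes the first bond of glutathione. Gclc measured 33.0, 39.4, 35.3 and 46.0 TPM in LC-DTA croton oil ears, against 51.0, 50.3 and 48.0 TPM in LC-DTA vehicle ears. The treated ears all lay below the vehicle ears, with a log2 difference of -0.38 ± 0.115, called lower. In LC-DTR ears Gclc averaged 49.5 ± 5.63 TPM after croton oil and 43.7 ± 5.68 TPM under vehicle (SD, n = 4 and 3), the groups overlapped, and the difference of 0.18 ± 0.115 was not called. Gclm was the flattest of the 10, averaging 38.7 ± 4.58 TPM in LC-DTA croton oil ears, 34.7 ± 1.69 TPM in LC-DTA vehicle ears, 33.8 ± 0.936 TPM in LC-DTR croton oil ears and 35.5 ± 4.16 TPM in LC-DTR vehicle ears. Its 4 groups overlapped in every comparison made, and it was called in none of the 5. With median ratio scaling its LC-DTA difference was 0.23 and called higher.

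Gsr, Gpx2 and Gpx3 use or recycle glutathione, and they took different courses. Gsr, the NADPH-driven reductase that returns oxidized glutathione to its reduced form, measured 70.7, 72.4, 72.5 and 77.3 TPM in LC-DTA croton oil ears, against 42.6, 36.9 and 43.3 TPM in LC-DTA vehicle ears. In LC-DTR ears it measured 52.6, 45.5, 43.6 and 51.2 TPM after croton oil, against 31.4, 29.2 and 38.4 TPM under vehicle. The treated ears lay above the vehicle ears in both genotypes, by 0.83 ± 0.0937 and 0.54 ± 0.0937 on the log2 scale, and every LC-DTA croton oil ear lay above every other sample. Gpx2, an intracellular glutathione peroxidase of epithelia, measured 15.5, 17.4, 14.7 and 14.7 TPM in LC-DTA croton oil ears, against 5.47, 4.47 and 5.30 TPM in LC-DTA vehicle ears. In LC-DTR ears it measured 5.65, 6.84, 4.37 and 6.90 TPM after croton oil, against 3.30, 2.99 and 4.66 TPM under vehicle. The LC-DTA groups stood clear of each other, with a mean 3.07 times the vehicle mean and a log2 difference of 1.45 ± 0.145, while the LC-DTR groups overlapped, with a log2 difference of 0.58 ± 0.145. Both were called higher.

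Gpx3 encodes the secreted glutathione peroxidase of plasma and extracellular fluid, a selenoprotein, and of the 10 genes it alone was called in opposite directions in the 2 genotypes. It measured 109.9, 87.7, 75.5 and 94.1 TPM in LC-DTA croton oil ears, against 176, 164 and 173 TPM in LC-DTA vehicle ears. In LC-DTR ears it measured 145, 146, 131 and 139.6 TPM after croton oil, against 96.6, 86.5 and 85.5 TPM under vehicle. All LC-DTA croton oil ears lay below all LC-DTA vehicle ears, by -0.90 ± 0.0967 on the log2 scale, and all LC-DTR croton oil ears lay above all LC-DTR vehicle ears, by 0.65 ± 0.0967. Ordered by level, LC-DTA vehicle ears came first, LC-DTR croton oil ears next without overlap, and LC-DTA croton oil and LC-DTR vehicle ears last, at overlapping levels of 91.8 ± 14.3 and 89.5 ± 6.12 TPM (SD, n = 4 and 3). Adipocytes are a known source of Gpx3, and the 7 adipocyte markers summed to 697 to 825 TPM in LC-DTA croton oil ears and 652 to 1020 TPM in LC-DTA vehicle ears, and to 573 to 916 TPM in LC-DTR croton oil ears and 514 to 1110 TPM in LC-DTR vehicle ears. Of these markers 0 were called higher and 1 lower in LC-DTA ears, and 1 higher and 2 lower in LC-DTR ears. The shares of all tested genes were 24.2% and 34.5% in LC-DTA and 22.1% and 29.5% in LC-DTR ears. In whole ears, fewer cells of a type and less RNA per cell cannot be told apart.

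Txnrd1 and Srxn1 serve the thioredoxin system. Txnrd1, the cytosolic selenoprotein that reduces thioredoxin with NADPH, averaged 143 ± 19.8 TPM in LC-DTA croton oil ears and 90.0 ± 5.15 TPM in LC-DTA vehicle ears, and 171 ± 9.18 TPM in LC-DTR croton oil ears and 106 ± 24.6 TPM in LC-DTR vehicle ears (SD, n = 4 and 3). The treated and vehicle ears did not overlap in either genotype, with log2 differences of 0.66 ± 0.137 and 0.70 ± 0.137. Srxn1, sulfiredoxin, which restores overoxidized peroxiredoxins, measured 134, 165, 129 and 128 TPM in LC-DTA croton oil ears, against 62.1, 44.4 and 62.8 TPM in LC-DTA vehicle ears. In LC-DTR ears it measured 101, 82.7, 87.0 and 104 TPM after croton oil, against 39.8, 41.5 and 47.9 TPM under vehicle. The treated ears had more than the vehicle ears throughout, with means 2.47 times and 2.17 times the vehicle mean and log2 differences of 1.30 ± 0.129 and 1.10 ± 0.129. After Slc7a11, this was the largest rise in LC-DTR ears.

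Nqo1 and Hmox1 act on quinones and heme. Nqo1, which reduces quinones without releasing radicals and is the customary readout of Nrf2, averaged 27.6 ± 2.68 TPM in LC-DTA croton oil ears and 23.4 ± 0.521 TPM in LC-DTA vehicle ears (SD, n = 4 and 3). Those groups did not overlap, but the difference of 0.23 ± 0.110 was not called, although it was called higher with median ratio scaling (0.31) and with quantile normalization (0.28). In LC-DTR ears Nqo1 averaged 24.8 ± 3.6 TPM after croton oil and 18.2 ± 2.09 TPM under vehicle, with overlapping groups and a called difference of 0.42 ± 0.110. Hmox1, which cleaves heme to biliverdin, iron and carbon monoxide, was the most abundant of the 10 in each group mean. It measured 481, 394, 377 and 713 TPM in LC-DTA croton oil ears, against 263, 159 and 363 TPM in LC-DTA vehicle ears. In LC-DTR ears it measured 314, 279, 261 and 274 TPM after croton oil, against 165, 166 and 144 TPM under vehicle. Treated and vehicle ears were separate in both genotypes, with log2 differences of 0.94 ± 0.238 and 0.83 ± 0.238, and the LC-DTA ears varied most, with coefficients of variation of 31.5% after croton oil and 38.9% under vehicle.

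**Figure D2:**
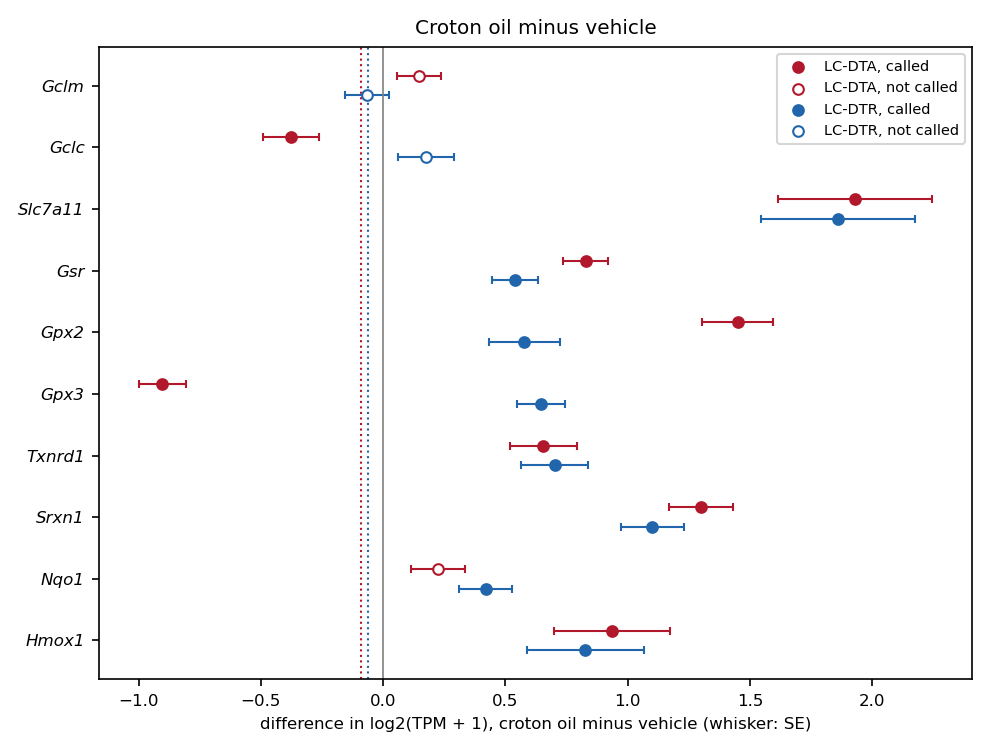
Difference in log2(TPM + 1) between croton oil and vehicle ears for each gene (x axis; whiskers SE), in LC-DTA (red, upper point) and LC-DTR ears (blue, lower point). Filled points are called, dotted lines mark the median of all tested genes, and Gpx3 lies at -0.90 in LC-DTA and at 0.65 in LC-DTR ears.

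The response itself was compared between the genotypes as the LC-DTA log2 difference minus the LC-DTR one. Gpx3 had the largest gap, -1.55 ± 0.137, and Gpx2 had 0.87 ± 0.206 and Gclc -0.55 ± 0.162, all 3 called. The other 7 genes were not called, with gaps between -0.19 for Nqo1 and 0.29 for Gsr. Thus 1 of the 10 was called higher and 2 lower, where 10.5% of all tested genes were called higher and 12.6% lower, and nothing is read from that count either. The median was 0.0893 over the 10 genes and -0.0209 over all tested genes. The call of Gclc was lost when LC-DTR croton oil replicates 2 and 3 were left out (-0.46), and also without LC-DTR vehicle replicate 2, LC-DTA vehicle replicate 1, LC-DTA vehicle replicate 2 or LC-DTA croton oil replicate 3, with values of -0.46, -0.54, -0.54 and -0.52. For Slc7a11 the gap of 0.07 ± 0.447 changed sign with the samples used, and was -0.51 without LC-DTR croton oil replicates 2 and 3.

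Under vehicle, Gpx3, Nqo1 and Gsr were called higher in LC-DTA than in LC-DTR ears, but only Gpx3 kept its call in every alternative setting or set of samples. The called genes were 3 of the 10, and 0 were called lower, where 19.1% of all tested genes were called higher and 5.34% lower. Without LC-DTR vehicle replicate 3 the counts were 5 higher and 1 lower, and nothing is read from them. Gpx3 averaged 171 ± 6.14 TPM in LC-DTA and 89.5 ± 6.12 TPM in LC-DTR vehicle ears, without overlap and with a log2 difference of 0.93 ± 0.103. Nqo1 differed by 0.35 ± 0.118 without overlap and Gsr by 0.31 ± 0.10 with overlap. Both lay near the threshold (limma adjusted p = 0.0449 and 0.0387). The call of Nqo1 was lost in 13 and that of Gsr in 10 of 26 alternative settings or sets of samples. The median difference was 0.328 over the 10 genes and 0.097 over all tested genes, and median ratio scaling moved the median of all genes to -0.013, quantile normalization to -0.0144. Of the called genes 78.2% were higher in LC-DTA ears as deposited, 50.2% with median ratio scaling and 47.7% with quantile normalization. Relative to those centres Gpx3 kept its call, at 0.81 with median ratio scaling and 0.91 with quantile normalization, whereas the calls of Nqo1 (0.23 and 0.23) and Gsr (0.19 and 0.23) were lost. Without LC-DTR croton oil replicates 2 and 3, which enter this comparison through the shared estimate of spread, Gpx2 was called higher as well (0.40, the same as with all samples), making 4 of the 10. Slc7a11 was lower in every LC-DTA vehicle ear than in any LC-DTR vehicle ear, at 1.27 ± 0.0600 and 1.70 ± 0.142 TPM (SD, n = 3 each), but its log2 difference of -0.25 ± 0.338 was not called. That SE rests on a spread shared by all groups, the treated ears included. For Slc7a11 the coefficients of variation were 38.9% and 50.3% after croton oil in LC-DTA and LC-DTR ears. Under vehicle they were 4.73% and 8.36%. The difference was also not called in a fit to the vehicle ears alone.

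Macrophage and fibroblast markers differed in the same comparison, as did some markers of other cells. All 9 macrophage markers were called higher in LC-DTA vehicle ears, and their summed level was 618 to 785 TPM in LC-DTA and 298 to 474 TPM in LC-DTR ears. All 7 fibroblast markers were called higher as well, summing to 7430 to 9260 TPM in LC-DTA and 2290 to 5180 TPM in LC-DTR ears. None of the markers in these lists was under 1 TPM in every sample. Keratinocyte markers gave 0 called higher and 3 lower of 8, endothelial markers 3 and 0 of 6 and cartilage markers 2 and 0 of 5. The sebaceous gland list gave 0 and 1 of 6, and the Langerhans cell list, which holds genes of other cells, 3 and 0 of 4. No neutrophil, adipocyte, skeletal muscle or red cell marker tested was called. The part of any of these cell types in the differences of Gpx3, Nqo1 and Gsr was not tested.

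After croton oil, Gpx2, Hmox1, Gsr and Srxn1 were called higher in LC-DTA than in LC-DTR ears, and Gpx3 and Gclc were called lower. These were 4 of the 10 higher and 2 lower, where 34.3% of all tested genes were called higher and 18% lower, with medians of 0.17 over the 10 genes and 0.0935 over all. Gpx2 differed most, with 15.6 ± 1.27 TPM in LC-DTA and 5.94 ± 1.20 TPM in LC-DTR ears (SD, n = 4 each), 2.62 times as high and 1.27 ± 0.135 on the log2 scale. Gsr differed by 0.60 ± 0.0868, Srxn1 by 0.56 ± 0.120 and Hmox1 by 0.76 ± 0.220, each without overlap. Gpx3 was lower by -0.62 ± 0.0895 without overlap, and Gclc by -0.36 ± 0.106 with overlapping groups. Over all tested genes, 65.6% of those called were higher in LC-DTA ears as deposited, 49.8% with median ratio scaling and 50.1% with quantile normalization, and all 6 members kept their direction and call under both. Without LC-DTR croton oil replicates 2 and 3, Hmox1 (0.69) and Gclc (-0.27) were no longer called and Slc7a11 was called lower (-0.77, against -0.18 with all samples). Macrophage markers summed to 533 to 631 TPM in LC-DTA and 363 to 487 TPM in LC-DTR croton oil ears, with 5 of 9 called higher and 1 lower, and fibroblast markers to 4830 to 6430 TPM and 2350 to 3430 TPM, with 6 of 7 called higher. Their part in these differences was not tested.

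**Figure D3:**
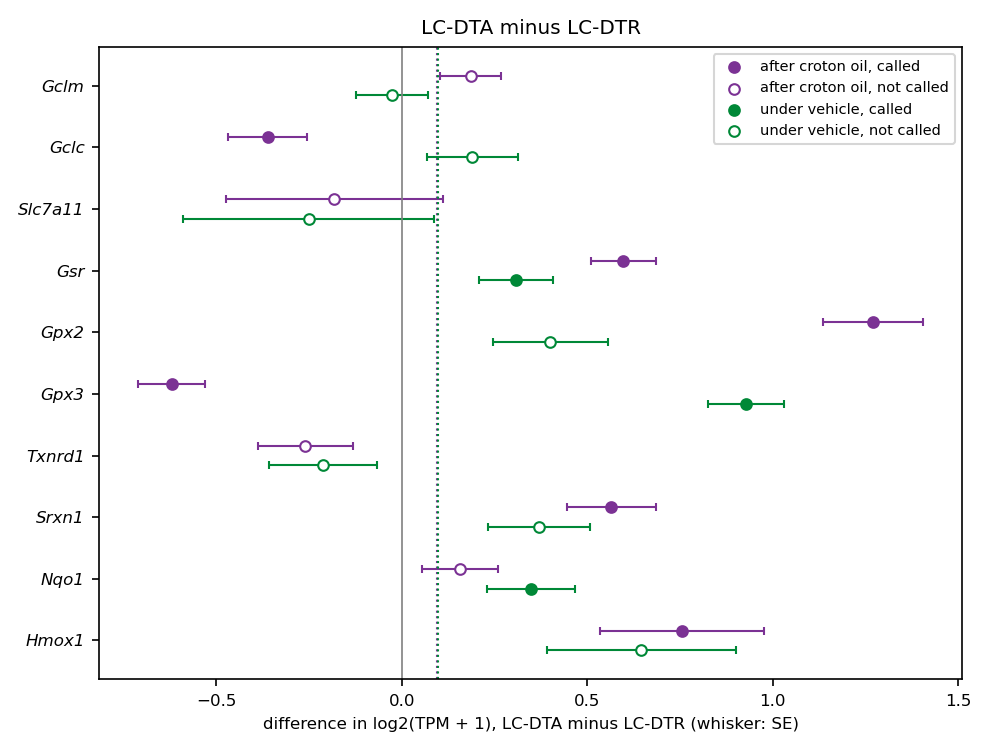
Difference in log2(TPM + 1) between LC-DTA and LC-DTR ears for each gene (x axis; whiskers SE), after croton oil (purple, upper point) and under vehicle (green, lower point). Filled points are called and dotted lines mark the median of all tested genes; Gpx3 is at -0.62 after croton oil and at 0.93 under vehicle.

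Among the genes that control the pathway, Nfe2l2 and the repressor Bach1 both rose after croton oil. Nfe2l2 rose, averaging 148 ± 12.2 TPM in LC-DTA croton oil ears and 70.7 ± 3.58 TPM in LC-DTA vehicle ears (log2 difference 1.06 ± 0.121, limma adjusted p = 1.08e-05), and 102 ± 18.3 TPM in LC-DTR croton oil ears and 66.8 ± 6.39 TPM in LC-DTR vehicle ears (0.59 ± 0.121, adjusted p = 0.0012). Keap1, which holds Nrf2, fell by 0.30 ± 0.0529 in LC-DTA (adjusted p = 0.000288) and by 0.22 ± 0.0529 in LC-DTR ears (adjusted p = 0.00316). The repressor Bach1 rose by 0.95 ± 0.116 and 1.31 ± 0.116 (adjusted p = 1.67e-05 and 2.68e-06), and the small Maf partner Mafk by 0.41 ± 0.141 and 1.09 ± 0.141 (adjusted p = 0.0239 and 4.65e-05), in LC-DTA and LC-DTR ears in that order. For Mafk the responses themselves differed, by -0.68 ± 0.199 (adjusted p = 0.0257), and for Nfe2l2 the difference of 0.47 ± 0.171 was not called (adjusted p = 0.0626). Of the 12 regulators 6 were called higher and 2 lower in LC-DTA ears, with a median of 0.302, and 9 higher and 2 lower in LC-DTR ears, with a median of 0.521. After croton oil 2 were called higher and 6 lower in LC-DTA than in LC-DTR ears, among them Cul3 with 260 ± 28.1 and 390 ± 40.8 TPM (-0.58 ± 0.0798, adjusted p = 6.14e-05). Leaving out LC-DTR croton oil replicate 2, LC-DTR croton oil replicate 4 or LC-DTA croton oil replicate 3 gave 2 higher and 3 lower in that comparison. Over all tested genes, 24.2% were called higher and 34.5% lower in LC-DTA ears, and 22.1% and 29.5% in LC-DTR ears. Between the genotypes these shares were 19.1% and 5.34% under vehicle and 34.3% and 18% after croton oil. For the difference of the responses they were 10.5% and 12.6%. Under vehicle 1 regulator was called higher and 1 lower, and 0 and 2 in the difference of the responses. The last count became 0 and 4 without LC-DTR croton oil replicates 2 and 3 or without LC-DTR vehicle replicate 1, 1 and 3 without LC-DTR croton oil replicate 1, 0 and 1 without LC-DTA vehicle replicate 3 and 0 and 0 without LC-DTA vehicle replicate 2.

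Other Nrf2 targets were called in both directions after croton oil, among them Gstm1 and Ephx1 lower and Gsta4 higher in both genotypes. Of 28 other targets tested, out of 29 found, 6 were called higher and 9 lower after croton oil in LC-DTA ears, with a median of -0.126, and 3 higher and 17 lower in LC-DTR ears, with a median of -0.242. In LC-DTA ears these are shares close to those over all tested genes, 24.2% higher and 34.5% lower, and over all tested genes in LC-DTR ears they were 22.1% and 29.5%. The LC-DTR counts became 4 and 11 with median ratio scaling, and 3 and 10 without LC-DTR croton oil replicate 4. Gstm1, a mu-class glutathione transferase, fell in both genotypes, averaging 99.3 ± 3.70 TPM in LC-DTA croton oil ears, 184 ± 9.84 TPM in LC-DTA vehicle ears, 97.3 ± 8.17 TPM in LC-DTR croton oil ears and 185 ± 13.8 TPM in LC-DTR vehicle ears (adjusted p = 1.4e-06 in LC-DTA and 1.3e-06 in LC-DTR). Ephx1, microsomal epoxide hydrolase, fell by 1.09 ± 0.138 in LC-DTA and by 0.94 ± 0.138 in LC-DTR ears (adjusted p = 2.18e-05 and 0.000111). Against this, Gsta4, a glutathione transferase that clears reactive lipid aldehydes, averaged 166 ± 21.5 TPM in LC-DTA croton oil ears and 20.2 ± 1.29 TPM in LC-DTA vehicle ears, and 36.2 ± 11.9 TPM in LC-DTR croton oil ears and 19.0 ± 7.34 TPM in LC-DTR vehicle ears. Its rise of 2.98 ± 0.257 in LC-DTA exceeded that of 0.90 ± 0.257 in LC-DTR ears by 2.08 ± 0.364 (adjusted p = 0.00197). Reads of the glutathione transferase, peroxiredoxin and ferritin families can be shared between near-identical copies, so the values of Gsta1, Gsta2, Gsta4, Gstm1, Gstp1, Prdx1, Prdx2 and Ftl1 are uncertain to that extent.

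Tkt, Gstp1 and Prdx1 were higher in LC-DTA than in LC-DTR croton oil ears. Between LC-DTA and LC-DTR croton oil ears 16 of the 28 were called higher and 3 lower, with a median of 0.293, beside 34.3% higher, 18% lower and a median of 0.0935 over all tested genes. With median ratio scaling 11 and 3 of the 28 were called, beside 3686 and 3709 of the 14693 tested genes. Tkt, transketolase of the pentose phosphate pathway that feeds NADPH production, averaged 166 ± 11.8 TPM in LC-DTA and 106 ± 11.5 TPM in LC-DTR croton oil ears (0.65 ± 0.0836, adjusted p = 4.19e-05). Gstp1, the pi-class transferase, averaged 70.1 ± 4.39 and 44.6 ± 3.67 TPM in the same order (0.64 ± 0.0700, adjusted p = 1.24e-05). Prdx1, a peroxide-reducing peroxiredoxin, rose in LC-DTA ears by 0.34 ± 0.0617 (adjusted p = 0.000414) and fell in LC-DTR ears by 0.17 ± 0.0617 (adjusted p = 0.0322), and the responses differed by 0.51 ± 0.0873 (adjusted p = 0.00186). Sqstm1, the autophagy receptor that binds Keap1, had a difference of -0.14 ± 0.0565 that was not called in LC-DTA ears (adjusted p = 0.0539) and rose by 0.29 ± 0.0565 in LC-DTR ears (adjusted p = 0.000793). Its responses differed by -0.43 ± 0.0799 (adjusted p = 0.0028). In the difference of the responses 7 targets were called higher and 3 lower, beside 10.5% and 12.6% of all tested genes. Under vehicle 6 targets were called higher and 1 lower, beside 19.1% and 5.34% of all tested genes. These target counts became 4 and 2 under either scaling, and 4 and 0 without LC-DTR vehicle replicate 2 or LC-DTA vehicle replicate 3.

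**Figure D4:**
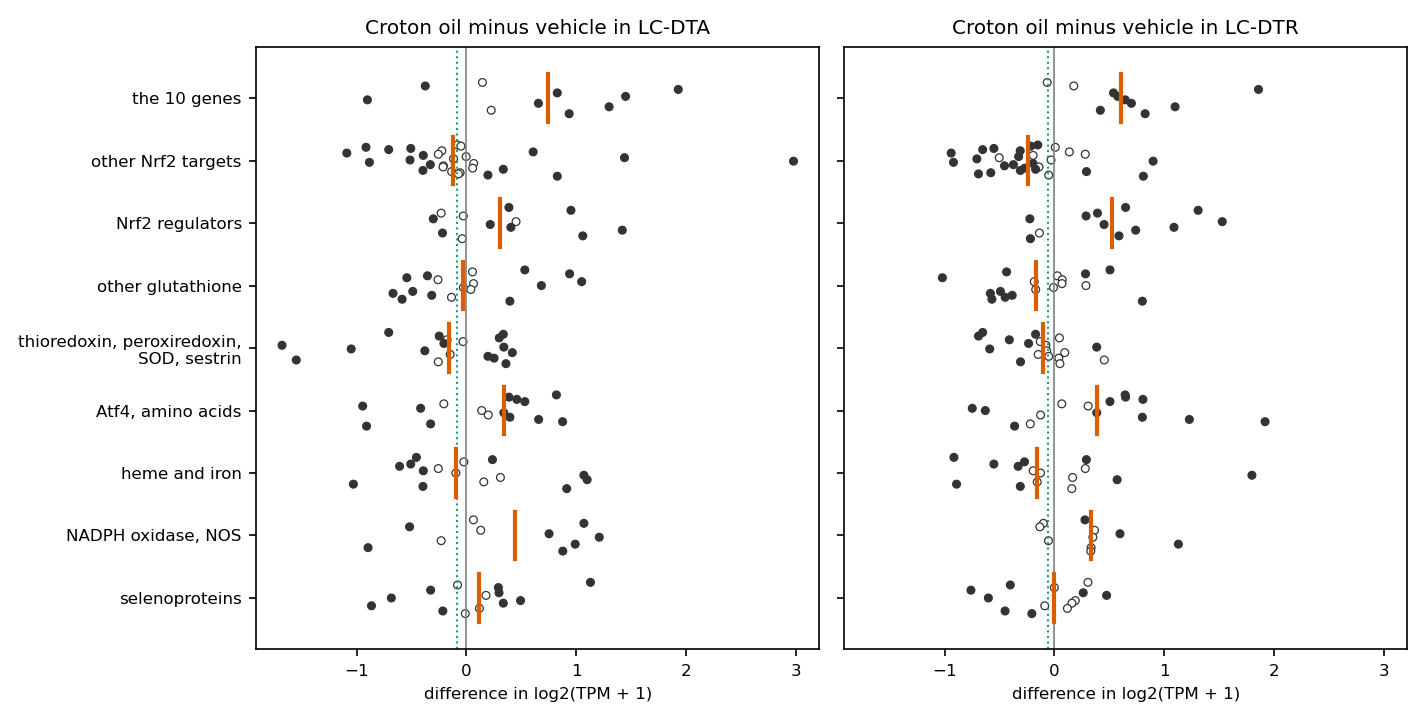
Difference in log2(TPM + 1) between croton oil and vehicle ears (x axis) for the genes of each list (rows), in LC-DTA (left) and LC-DTR ears (right). Each point is a gene, filled where called; orange bars are list medians and the dotted line the median of all tested genes, and the other Nrf2 targets have medians of -0.126 in LC-DTA and -0.242 in LC-DTR ears.

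Other genes of glutathione metabolism split between directions. Slc3a2, the heavy chain that Slc7a11 needs to reach the membrane, averaged 174 ± 5.65 TPM in LC-DTA croton oil ears and 132 ± 1.96 TPM in LC-DTA vehicle ears, and 208 ± 30.8 TPM in LC-DTR croton oil ears and 119 ± 19.6 TPM in LC-DTR vehicle ears. It rose in both genotypes (0.40 ± 0.110, adjusted p = 0.00707, and 0.80 ± 0.110, adjusted p = 6.84e-05). Gss, glutathione synthetase, fell in LC-DTR ears by 0.45 ± 0.128 (adjusted p = 0.0102), and its LC-DTA difference was -0.14 ± 0.128 (adjusted p = 0.381). Glrx, the glutaredoxin that frees proteins from bound glutathione, averaged 218 ± 17.1 TPM in LC-DTA croton oil ears and 105 ± 7.69 TPM in LC-DTA vehicle ears, and 135 ± 18.1 TPM in LC-DTR croton oil ears and 153 ± 16.6 TPM in LC-DTR vehicle ears. Its responses differed by 1.24 ± 0.149 (adjusted p = 0.000248). Ggct, which breaks down gamma-glutamyl peptides, rose by 0.94 ± 0.0700 in LC-DTA and by 0.28 ± 0.0700 in LC-DTR ears (adjusted p = 8.56e-07 and 0.00409), and these responses differed by 0.66 ± 0.0990 (adjusted p = 0.000951). Oplah, oxoprolinase of the same cycle, fell by 0.59 ± 0.0816 and 0.57 ± 0.0816 (adjusted p = 4.79e-05 and 9.33e-05). Of the 17 genes tested 5 were called higher and 6 lower in LC-DTA (median -0.0281), 3 and 7 in LC-DTR (median -0.17), 3 and 2 between the genotypes under vehicle, 7 and 1 after croton oil and 3 and 0 in the difference of the responses. With quantile normalization the vehicle counts were 3 and 5, and without LC-DTR croton oil replicates 2 and 3 the last were 4 and 1. Over all tested genes, 24.2% were called higher and 34.5% lower in LC-DTA ears, and 22.1% and 29.5% in LC-DTR ears. Between the genotypes these shares were 19.1% and 5.34% under vehicle and 34.3% and 18% after croton oil. For the difference of the responses they were 10.5% and 12.6%.

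Among thioredoxin, peroxiredoxin, superoxide dismutase and sestrin genes, the largest differences between the responses were those of Sesn1 and Txnip. Sesn1, a sestrin that restrains growth signalling under stress, averaged 12.2 ± 1.15 TPM in LC-DTA croton oil ears and 41.2 ± 4.29 TPM in LC-DTA vehicle ears, and 44.7 ± 6.33 TPM in LC-DTR croton oil ears and 46.9 ± 3.61 TPM in LC-DTR vehicle ears. It fell in LC-DTA ears by 1.68 ± 0.107 (adjusted p = 4.46e-07), and the responses differed by -1.60 ± 0.152 (adjusted p = 8.2e-05). Txnip, the inhibitor of thioredoxin, averaged 129 ± 6.65 TPM in LC-DTA croton oil ears and 387 ± 105 TPM in LC-DTA vehicle ears, and 722 ± 270 TPM in LC-DTR croton oil ears and 513 ± 151 TPM in LC-DTR vehicle ears. It fell in LC-DTA ears by 1.55 ± 0.264 (adjusted p = 0.000238), the LC-DTR difference was 0.46 ± 0.264 (adjusted p = 0.165), and the responses differed by -2.0 ± 0.374 (adjusted p = 0.00278). Txn1, the thioredoxin that Txnrd1 reduces, rose by 0.20 ± 0.0730 in LC-DTA ears (adjusted p = 0.0329), and its LC-DTR difference was -0.05 ± 0.0730 (adjusted p = 0.576). Prdx2 fell by 0.25 ± 0.0877 in LC-DTA and by 0.69 ± 0.0877 in LC-DTR ears (adjusted p = 0.0257 and 3.93e-05). Over all tested genes, 24.2% were called higher and 34.5% lower in LC-DTA ears, and 22.1% and 29.5% in LC-DTR ears. Between the genotypes these shares were 19.1% and 5.34% under vehicle and 34.3% and 18% after croton oil. For the difference of the responses they were 10.5% and 12.6%. Of the 18 genes 7 were called higher and 7 lower in LC-DTA (median -0.162), 1 and 7 in LC-DTR (median -0.102), 8 and 3 between the genotypes after croton oil and 3 and 2 in the difference of the responses. Under vehicle 5 were called higher and 2 lower, but 1 and 3 with median ratio scaling, 1 and 2 with quantile normalization, 2 and 2 without LC-DTR vehicle replicate 1 or LC-DTA vehicle replicate 1, and 1 and 2 without LC-DTR vehicle replicate 2 or LC-DTA vehicle replicate 3.

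Slc7a11 is also a target of Atf4, the transcription factor of amino acid shortage, and Atf4, Slc7a5 and Asns rose in both genotypes. The part of Atf4 in the differences of Slc7a11 was not tested. Atf4 averaged 449.9 ± 9.74 TPM in LC-DTA croton oil ears and 345 ± 29.1 TPM in LC-DTA vehicle ears, and 411 ± 48.8 TPM in LC-DTR croton oil ears and 261 ± 21.2 TPM in LC-DTR vehicle ears (0.39 ± 0.0871 and 0.65 ± 0.0871, adjusted p = 0.00182 and 6.01e-05). Slc7a5, the leucine transporter that shares the Slc3a2 heavy chain, rose by 0.88 ± 0.152 in LC-DTA and by 1.92 ± 0.152 in LC-DTR ears (adjusted p = 0.000273 and 1.31e-06), and the responses differed by -1.05 ± 0.215 (adjusted p = 0.00457). Asns, asparagine synthetase, rose by 0.82 ± 0.157 and 0.65 ± 0.157 (adjusted p = 0.00058 and 0.00384). Between the genotypes, 19.1% of all tested genes were called higher and 5.34% lower under vehicle, and 34.3% and 18% after croton oil. For the difference of the responses these shares were 10.5% and 12.6%. Of the 15 genes 8 were called higher and 4 lower in LC-DTA (median 0.341) and 8 and 3 in LC-DTR ears (median 0.386), where 24.2% and 34.5% of all tested genes were called higher and lower in LC-DTA and 22.1% and 29.5% in LC-DTR ears. Between the genotypes 3 were called higher and 2 lower under vehicle, 1 and 4 after croton oil, which became 4 and 4 without LC-DTR croton oil replicate 1, and 1 and 2 in the difference of the responses, which became 2 and 5 without LC-DTR croton oil replicates 2 and 3, 1 and 4 without LC-DTR vehicle replicate 2 and 2 and 3 without LC-DTR croton oil replicate 3.

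The heme and iron genes around Hmox1 were called in both directions. Over all tested genes, 24.2% were called higher and 34.5% lower in LC-DTA ears, and 22.1% and 29.5% in LC-DTR ears. Between the genotypes these shares were 19.1% and 5.34% under vehicle and 34.3% and 18% after croton oil. For the difference of the responses they were 10.5% and 12.6%. Of 15 genes 4 were called higher and 6 lower in LC-DTA (median -0.0964) and 3 and 6 in LC-DTR ears (median -0.156), and the counts were 1 and 0 between the genotypes under vehicle, 4 and 3 after croton oil and 1 and 2 in the difference of the responses. Tfrc, the transferrin receptor, averaged 111 ± 7.56 TPM in LC-DTA croton oil ears and 58.6 ± 0.135 TPM in LC-DTA vehicle ears, and 53.1 ± 4.08 TPM in LC-DTR croton oil ears and 48.1 ± 10.4 TPM in LC-DTR vehicle ears, and the responses differed by 0.76 ± 0.161 (adjusted p = 0.00543). Hp, the hemoglobin scavenger haptoglobin, rose by 1.07 ± 0.172 in LC-DTA and by 1.80 ± 0.172 in LC-DTR ears (adjusted p = 0.000148 and 4.72e-06). The vehicle count was 1 and 1 with either scaling, 3 and 1 without LC-DTR croton oil replicates 2 and 3 and up to 4 and 1 without a single sample (LC-DTR vehicle replicate 3), and the last count was 1 and 0 without LC-DTR vehicle replicate 2, LC-DTA vehicle replicate 3, LC-DTA croton oil replicate 2 or LC-DTA croton oil replicate 4. Of 6 red cell genes, the globin genes Hbb-bs, Hbb-bt, Hba-a1 and Hba-a2 were listed at 0 in every sample and Slc4a1 was under 1 TPM in every sample, whereas Alas2, the heme synthesis enzyme of red cell precursors, averaged 8.39 ± 5.47 TPM in LC-DTA croton oil ears, 7.85 ± 0.558 TPM in LC-DTA vehicle ears, 8.44 ± 1.17 TPM in LC-DTR croton oil ears and 7.57 ± 4.66 TPM in LC-DTR vehicle ears.

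Several genes that produce oxidants were higher in LC-DTA than in LC-DTR ears. Of 10 NADPH oxidase and nitric oxide synthase genes tested, out of 13 found, 6 were called higher and 0 lower between LC-DTA and LC-DTR ears under vehicle (median 0.657) and 6 and 1 after croton oil (median 0.589). Cybb, the catalytic subunit of the phagocyte oxidase, averaged 22.2 ± 3.63 TPM in LC-DTA croton oil ears and 10.02 ± 1.5 TPM in LC-DTA vehicle ears, and 5.62 ± 0.693 TPM in LC-DTR croton oil ears and 6.49 ± 2.93 TPM in LC-DTR vehicle ears. After croton oil it was higher in LC-DTA ears by 1.80 ± 0.202 (adjusted p = 1.53e-05). With croton oil 5 were called higher and 2 lower in LC-DTA (median 0.441), 3 and 0 in LC-DTR ears (median 0.333), which became 6 and 0 with median ratio scaling, 5 and 0 with quantile normalization and 5 and 0 without LC-DTR vehicle replicate 3, and 1 and 1 in the difference of the responses. Over all tested genes, 19.1% were called higher and 5.34% lower between the genotypes under vehicle, and 34.3% and 18% after croton oil. For croton oil against vehicle these shares were 24.2% and 34.5% in LC-DTA and 22.1% and 29.5% in LC-DTR ears. For the difference of the responses they were 10.5% and 12.6%. Several of the listed oxidase and synthase genes are expressed by macrophages and neutrophils. Macrophage markers summed to 533 to 631 TPM in LC-DTA and 363 to 487 TPM in LC-DTR croton oil ears, and to 618 to 785 TPM in LC-DTA and 298 to 474 TPM in LC-DTR vehicle ears, with 5 and 9 of 9 called higher in LC-DTA ears. Neutrophil markers summed to 444 to 675 TPM and 265 to 775 TPM in the same croton oil groups, and to 34.0 to 67.9 TPM and 25.9 to 69.3 TPM in the vehicle groups. Their part in the differences of the oxidase genes was not tested.

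A list of selenoprotein synthesis genes, such as Secisbp2 and Eefsec, and of some other selenoproteins was also mixed. It leaves out the selenoproteins Gpx1 and Gpx4, counted with the glutathione genes, and Txnrd2 and Txnrd3, counted with the thioredoxin genes. Selenop, listed under its older symbol Sepp1 and encoding the plasma selenium carrier, averaged 291 ± 36.3 TPM in LC-DTA croton oil ears and 530.0 ± 52.0 TPM in LC-DTA vehicle ears, and 311 ± 44.8 TPM in LC-DTR croton oil ears and 334 ± 74.0 TPM in LC-DTR vehicle ears. Sepp1 fell in LC-DTA ears by 0.86 ± 0.150 (adjusted p = 0.000273), was higher in LC-DTA than in LC-DTR vehicle ears by 0.69 ± 0.161 (adjusted p = 0.00826), and its responses differed by -0.78 ± 0.212 (adjusted p = 0.0192). Of 13 genes 5 were called higher and 4 lower in LC-DTA (median 0.118), 2 and 5 in LC-DTR (median -0.000249), 2 and 0 between the genotypes under vehicle (2 and 2 with median ratio scaling), 8 and 1 after croton oil and 3 and 1 in the difference of the responses. The last count was 1 and 1 without LC-DTR vehicle replicate 3, LC-DTA vehicle replicate 2 or LC-DTA vehicle replicate 3. Over all tested genes, 24.2% were called higher and 34.5% lower in LC-DTA ears, and 22.1% and 29.5% in LC-DTR ears. Between the genotypes these shares were 19.1% and 5.34% under vehicle and 34.3% and 18% after croton oil. For the difference of the responses they were 10.5% and 12.6%.

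Markers of inflammatory and resident cells also differed between croton oil and vehicle ears. Over all tested genes, 24.2% were called higher and 34.5% lower in LC-DTA ears, and 22.1% and 29.5% in LC-DTR ears. All 7 neutrophil markers found were called higher after croton oil in both genotypes, and their sum was 444 to 675 TPM in LC-DTA croton oil ears and 34.0 to 67.9 TPM in LC-DTA vehicle ears, and 265 to 775 TPM in LC-DTR croton oil ears and 25.9 to 69.3 TPM in LC-DTR vehicle ears. Of these, S100a8 and S100a9 are also made by stressed keratinocytes. Macrophage markers did not rise as a set, with 1 called higher and 5 lower in LC-DTA and 3 higher and 0 lower in LC-DTR ears. The 8 keratinocyte markers summed to 23700 to 26500 TPM in LC-DTA croton oil ears and 28400 to 29700 TPM in LC-DTA vehicle ears, and to 18100 to 23900 TPM in LC-DTR croton oil ears and 31700 to 38900 TPM in LC-DTR vehicle ears, with 3 higher and 3 lower in LC-DTA and 1 higher and 6 lower in LC-DTR ears. Fibroblast markers gave 0 higher and 3 lower of 7 in LC-DTA and 1 and 0 in LC-DTR ears. Endothelial markers gave 0 and 4 of 6 in LC-DTA and 2 and 1 in LC-DTR ears, and skeletal muscle markers 0 and 3 of 6 and 0 and 0. The sebaceous gland list gave 0 and 1 of 6 in each genotype, the cartilage list 0 and 2 of 5 in each, and of the red cell list Alas2, the gene tested, was not called. Of 4 Langerhans cell list genes tested, 1 was called higher and 3 lower in LC-DTA and 1 and 0 in LC-DTR ears, although the list holds genes of other antigen-presenting and epithelial cells. The part of these cells in the members' differences was not tested.

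**Figure D5:**
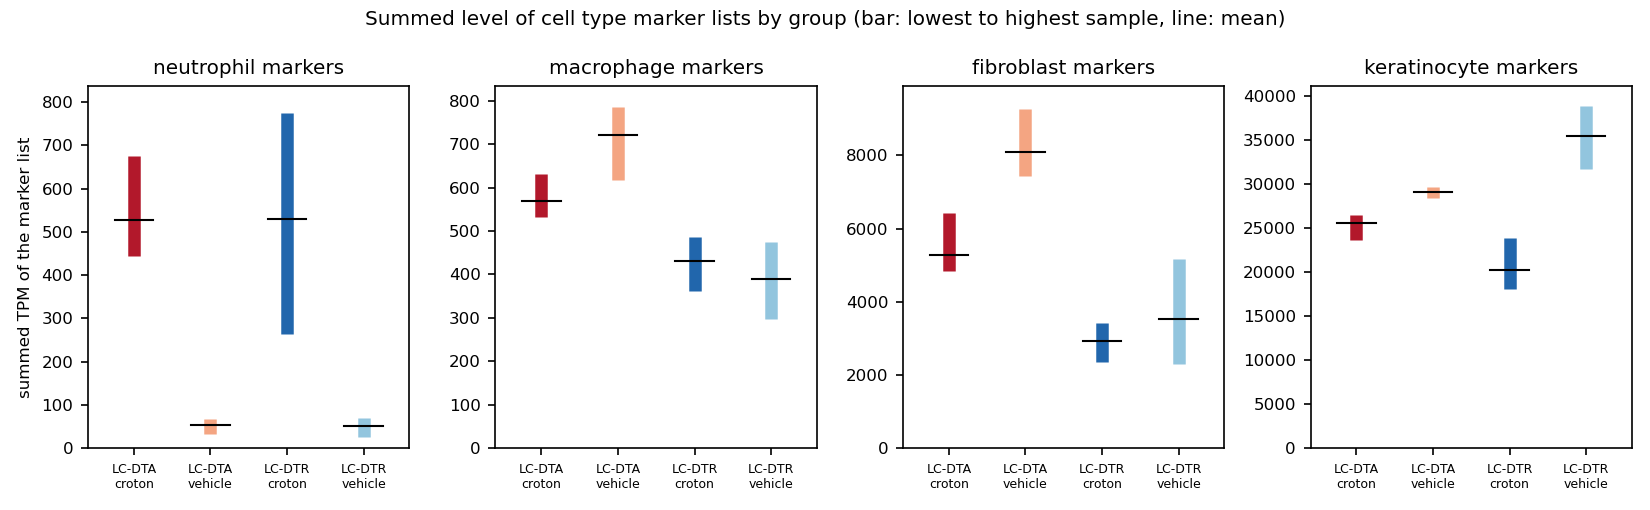
Summed TPM of the neutrophil, macrophage, fibroblast and keratinocyte marker lists (y axes, linear, from 0) by genotype and treatment. Vertical bars run from the lowest to the highest sample and black lines mark group means; neutrophil markers sum to 444 to 675 TPM in LC-DTA and 265 to 775 TPM in LC-DTR croton oil ears, all above the vehicle ears.

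The members varied together to different extents over the 14 samples, which share 4 groups, so these correlations of log2(TPM + 1) describe the group pattern as much as anything within groups. Gsr and Gpx2 were the most alike pair (r = 0.965), followed by Gsr and Srxn1 (0.952) and Gpx2 and Srxn1 (0.897), whereas Gclc and Gpx2 ran most opposite (-0.502). Among 11547 other genes, the closest to Gsr was Clec7a, the beta-glucan receptor of myeloid cells (r = 0.986). Clec7a averaged 35.8 ± 5.07 TPM in LC-DTA croton oil ears and 3.30 ± 0.609 TPM in LC-DTA vehicle ears, and 8.83 ± 3.62 TPM in LC-DTR croton oil ears and 1.90 ± 1.26 TPM in LC-DTR vehicle ears. Gpx2 was closest to Ly6c2, a surface protein of monocytes (0.982), and Erc1 (0.975), and Ly6c2 averaged 48.7 ± 11.6, 3.81 ± 1.23, 4.76 ± 1.82 and 2.58 ± 2.24 TPM in those 4 groups in that order. Slc7a11 was closest to Serpina3f and the bacterial sensor Nod2 (0.977 each), Srxn1 to Fam83a (0.991) and the growth factor receptor Met (0.987), and Txnrd1 to the triglyceride-forming enzyme Dgat1 (0.971) and Reep3 (0.968). Hmox1 was closest to Ywhah (0.921) and Lpxn (0.917), Nqo1 to Adat3 (0.913) and Hnrnpa0 (0.911), and Gclc to Ubr3 (0.925) and Acvr2a (0.918). Gclm, with little variation, reached 0.870 with Ift74 and 0.864 with Cops5. Gpx3 was closest to Git1 (0.924) and the death-associated kinase Dapk1 (0.891), and Dapk1 averaged 15.5 ± 1.48 TPM in LC-DTA croton oil ears and 35.5 ± 3.48 TPM in LC-DTA vehicle ears, and 26.1 ± 2.26 TPM in LC-DTR croton oil ears and 20.8 ± 3.05 TPM in LC-DTR vehicle ears.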

How the data were processed

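RNA of 14 whole mouse ears was measured, with libraries from the Illumina TruSeq Stranded mRNA kit on RNA from a Qiagen RNeasy kit, per the labels' protocols. Per the submitters' processing notes, the build was mm10 and the tools included HISAT2, featureCounts of Subread, and cutadapt. The derivation of TPM, the annotation and the strand setting are not stated in any source used here. The values are TPM as deposited by the authors. TPM keep no read depth, so no counting interval is given, and a very abundant gene lowers the TPM of the rest: the 10 most abundant genes held 7.2 to 10.1% of a sample.

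From 24062 rows, 27 named as dates were left out (0.124 to 0.145% of TPM). The scale was log2(TPM + 1), and the R 4.3.3 package limma (3.58.1) gave the fit, with a trend and 4 group means over the 14 samples, for genes with at least 1 TPM in at least 3 samples. Adding 1 TPM understates the change of low genes, such as Slc7a11. Two-sided p-values were adjusted by Benjamini-Hochberg within each of 5 comparisons, and a gene was called under 0.05. The script was tested on simulated data in which each gene had the same spread in every group. Genes of unequal spread, such as Slc7a11, were not covered by that simulation. Levels are mean ± SD. Summaries used pandas 2.3.3 (Python 3.11.15) and the plots matplotlib 3.10.9.

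The members, 8 pathway lists and 11 cell type marker lists were chosen with earlier results of these data known. Of 218 list entries 217 were found, 7 under older symbols. Some genes are shared between pathway lists, so the counts of those lists are not independent. Ftl1, Fth1, Blvrb, Slc48a1, Txn1, Prdx1, Cat, Slc3a2, Chac1, Sesn2 and Atf4 are such genes. The text names the members, up to 4 called genes of lowest p per list and comparison, the partners Nfe2l2, Keap1, Slc3a2, Gss, Txn1 and Atf4, and the 2 genes most correlated with each member. Some genes that meet this rule are not reported here. Sums of marker TPM, 0 identical sample pairs and promoter windows of RefSeq (GRCm38.p6) were also examined. Alternatives were another pseudocount, filter, scaling, variance model, replicate block or set of samples. LC-DTA croton oil samples 3 and 4 were left out together because their label numbers, 10796 and 10797, stand apart from 10601 and 10602.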

Additional observations from a re-analysis of the deposited data

Results flagged for a closer look

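For 3 genes the croton oil response differed between LC-DTA and LC-DTR ears, as the LC-DTA minus the LC-DTR log2 difference. The value was -1.55 for Gpx3, the secreted glutathione peroxidase, 0.871 for Gpx2, the epithelial one, and -0.552 for Gclc, the catalytic subunit of glutamate-cysteine ligase.

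Srxn1 in LC-DTA croton oil replicate 2, at 165 TPM, stood far above the other 3 samples of its group, which lay between 128 and 134 TPM. About 1 in 20 groups would be marked in this way by chance, and 20 groups of 4 samples were examined. No explanation was tested for any of these values.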

How the results depend on the processing

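Of 1290 recomputed values of the 10 genes, 1223 kept direction and side of the threshold, 30 lost a call, 20 gained one and 17 changed sign. Of 129 recomputed counts of called members 120 stayed within 1.5 times of the first, and of 680 counts over the other lists 637 did. The count that moved was that of members called between LC-DTA and LC-DTR vehicle ears, 3 as reported, 1 without a filter, with median ratio scaling, with quantile normalization and with LC-DTA croton oil samples 3 and 4 left out, and 1 to 6 with each replicate left out in turn (6 without LC-DTR vehicle replicate 3). Signs changed for the difference of the Slc7a11 responses, at -0.0406 with a pseudocount of 5, -0.331 without LC-DTA croton oil samples 3 and 4 and -0.514 without LC-DTR croton oil samples 2 and 3, the last chosen after seeing the data, and for that of Hmox1, at -0.0177 without LC-DTA croton oil samples 3 and 4. With each replicate left out in turn the sign also changed for Gclm in LC-DTR ears (-0.145 to 0.0188) and between vehicle ears (-0.106 to 0.0574), Slc7a11 between croton oil ears (-0.426 to 0.0535), and the differences of the responses of Slc7a11 (-0.174 to 0.305), Txnrd1 (-0.179 to 0.155) and Hmox1 (-0.209 to 0.383). The cause was not tested. Calls were also gained by Txnrd1, lower between croton oil ears with median ratio scaling (-0.355), and by Hmox1, higher between vehicle ears without LC-DTA vehicle replicate 2 (0.964). Same-numbered samples were not treated as paired. Their deviations from the group means correlated at r = -0.315 to 0.126 over 19 pairs, 2 above 0.1. With groups of 3 or 4 samples this cannot exclude pairing. With a replicate block 3211 genes were called higher and 4522 lower in LC-DTA ears, against 3552 and 5067 without it, and 2817 and 3628 in LC-DTR ears, against 3243 and 4334, with the same number of members called in each comparison. With median ratio scaling 51.6% of the genes called in LC-DTA ears were higher (4388 and 4112 genes), against 41.2% as deposited. TPM hold no depth, so no counting limit can be given.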
